A study of Mus musculus with 3 samples.

Results

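Keratin and keratin-associated protein genes were examined in DNase-seq data from MEL cells, an immortalized mouse erythroleukemia line that resembles red cell precursors. They were the protein-coding genes of the GENCODE M21 basic annotation (mm10) whose symbol is Krt followed by a number or begins with Krtap. There were 110 such genes among 21851 protein-coding genes with an annotated coding start on the main chromosomes. They comprised 27 keratins of chromosome 11, 26 keratins of chromosome 15 and 57 keratin-associated protein genes on 5 chromosomes. All samples were MEL cells under 1 condition, and the labels name no treatment. Biological replicate 1 had 2 libraries, with technical replicate numbers 1 and 3, whose merged alignment gave 1 list of peaks. Biological replicate 2 had 1 library and 1 list. The samples come from a single line, for which the labels give neither age nor sex.

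Keratins form the intermediate filaments of epithelial cells. A type I keratin pairs with a type II keratin to build the filament, and different pairs mark simple epithelia, the layers of stratified epithelia and the hair follicle. Keratin-associated proteins form the matrix that embeds keratin filaments in the hair shaft. In mammals the type I genes lie in a cluster that also holds keratin-associated genes, and the type II genes lie in another cluster, at whose edge Krt18, a type I gene, sits next to its type II partner Krt8. DNase I cuts DNA where chromatin is accessible, so peaks of cut ends mark promoters, enhancers and other regulatory sites. Red cell precursors belong to the blood lineage and are not epithelial cells.

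The replicate 1 list held 281600 distinct peaks with a median deposited score of 73, and the replicate 2 list held 89046 with a median of 32. Each peak was 150 bp wide, and its score is the authors' value, used here only to rank and describe peaks within a list. Some peaks of a list overlap each other and were counted separately, so a count of peaks can exceed that of sites. The labelled cell type was compared with its markers. Of 12 erythroid marker genes, 11 had a promoter peak in replicate 1 and 10 in replicate 2, against 58.3% and 49.4% of all protein-coding genes. The best scores in the replicate 2 list were those of Epor, the erythropoietin receptor, with 149 in replicate 1 and 106 in replicate 2, then Klf1 with 140 and 84, Kel with 144 and 80, and Gata1 with 141 and 71. Of 12 epithelial cell markers, 4 had a promoter peak in replicate 1 and 2 in replicate 2. Those in both lists were Cldn3, a tight junction protein, scoring 132 and 49, and Elf3, an epithelial transcription factor, scoring 117 and 49. The epithelial markers Epcam and Cdh1, the epithelial cadherin, had none in either list, and these genes were picked after their values were seen.

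The peaks that carry the findings below are shown first, as 150 bp of the mm10 plus strand read from the GRCm38 reference sequence of RefSeq at positions of the replicate 2 list. Capitals mark the words searched on both strands, each known from a family of factors. The GATA family is represented by GATAA. A longer form of that word is AGATAAG, so both are counted at such a place. The AP-1 word is TGAGTCA. For RUNX factors it is TGTGGT, and for ETS factors it is CCGGAAG. For KLF factors it is CCACACCC. The CTCF core word is CCAGNGGGC, with CTAGNGGGC also allowed. The first pair are the highest-scoring peaks of either keratin cluster, at chr15:101984356-101984505 and chr15:102018276-102018425. The next 3 are the only promoter peaks of keratin genes found in both lists, at chr15:101446696-101446845, chr15:101473096-101473245 and chr15:101364036-101364185. The last, at chr11:99379696-99379845, had the next to highest replicate 2 score of the chromosome 11 cluster and holds the CTCF core word.
Between Krt78 and Krt8: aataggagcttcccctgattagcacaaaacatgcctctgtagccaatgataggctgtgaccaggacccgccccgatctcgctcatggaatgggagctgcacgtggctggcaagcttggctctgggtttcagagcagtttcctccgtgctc
Between Krt8 and Krt18: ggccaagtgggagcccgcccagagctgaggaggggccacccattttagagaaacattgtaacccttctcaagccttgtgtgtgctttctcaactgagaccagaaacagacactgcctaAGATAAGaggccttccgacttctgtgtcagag
Krt88 promoter: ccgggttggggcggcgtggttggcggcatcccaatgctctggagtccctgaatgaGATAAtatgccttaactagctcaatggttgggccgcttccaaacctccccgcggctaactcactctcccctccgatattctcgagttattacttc
Krt86 promoter: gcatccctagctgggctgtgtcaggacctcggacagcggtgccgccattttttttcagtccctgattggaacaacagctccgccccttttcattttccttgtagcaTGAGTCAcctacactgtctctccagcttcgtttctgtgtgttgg
Krt80 internal start: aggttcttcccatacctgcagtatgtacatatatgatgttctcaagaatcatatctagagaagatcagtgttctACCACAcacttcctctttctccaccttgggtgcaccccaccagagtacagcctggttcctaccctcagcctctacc
Between Krt28 and Krt10: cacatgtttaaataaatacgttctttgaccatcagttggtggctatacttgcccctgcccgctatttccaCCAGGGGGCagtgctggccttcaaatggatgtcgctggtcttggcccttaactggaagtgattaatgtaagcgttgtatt
The peak between Krt8 and Krt18 carries AGATAAG, the Krt88 peak GATAA, the Krt86 peak the AP-1 word and the Krt80 peak the RUNX word on the minus strand. None of the words was present in the 150 bp between Krt78 and Krt8. These are matches of letters and not shown to be bound.

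Few keratin promoters held a called peak. A promoter peak was one whose centre lay at most 1000 bp from a protein-coding transcript's start. One was found at 9 of 110 genes in replicate 1, or 8.18% (Wilson 95% interval 4.36 to 14.8%), against 58.3% of all protein-coding genes. In replicate 2 it was found at 3 of 110, or 2.73% (0.932 to 7.71%), against 49.4%. The same 3 genes had one in both lists, against 49.4% of all genes, and 101 had none in either. A start inside a hotspot, the broader enriched regions the authors also deposited, was found for 1 gene in replicate 1, against 51.8% of all genes, and for 0 in replicate 2, against 42.4%. The intervals cover counting error over genes only. With 1 list per biological replicate there is no spread within a replicate, so no test was made.

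**Figure D1:**
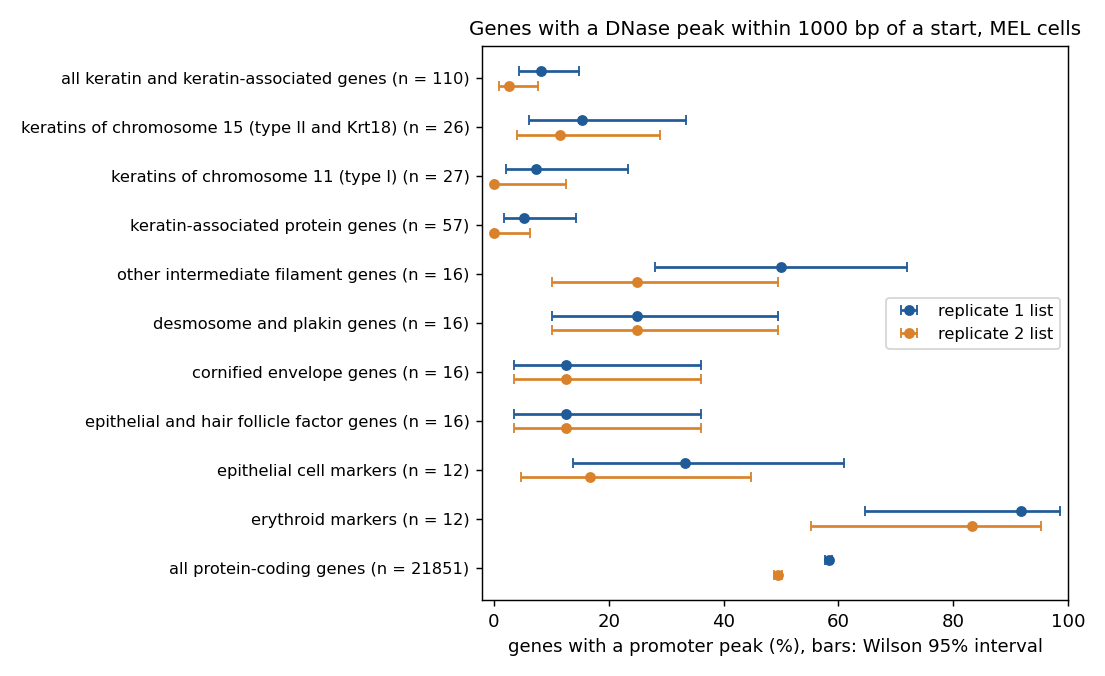
Percentage of genes with a promoter peak in each list, with Wilson 95% intervals, for the keratin families above, comparison lists below and all protein-coding genes at the bottom. The keratin families lie at 15.4% or less, and all genes at 58.3% in replicate 1 and 49.4% in replicate 2.

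Among the keratins of chromosome 15, 4 of 26 had a promoter peak in replicate 1 and 3 of 26 in replicate 2. Among those of chromosome 11 the counts were 2 of 27 and 0 of 27, and among keratin-associated genes 3 of 57 and 0 of 57. The counts of 0 allow shares up to 12.5% and 6.31% by the upper Wilson limit. The Wilson intervals of the 3 families overlapped in each list.

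Krt88 scored 123 in replicate 1 and 35 in replicate 2, from the same peak 973 bp upstream of its start. Krt86, a keratin of the hair cortex, scored 119 and 22, from a peak 307 bp upstream. Krt80, a type II keratin of differentiating epithelial cells, scored 105 and 16, from peaks 447 and 467 bp downstream of an internal transcript start. These were the only keratin promoters in both lists, and Krt80 lost its peak when only the most upstream start of each gene was counted. In replicate 2 all 3 scored below 63, the median promoter score of all genes with a peak, and in replicate 1 all 3 scored below the corresponding median of 139.

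The remaining 6 were in the replicate 1 list alone. Krt24, a type I keratin of differentiated epidermis, scored 101, and Krtap10-4, the only gene with a start inside a hotspot, scored 75. Krt81, another hair cortex keratin, scored 52, Krtap5-4 scored 39, Krt25 of the inner root sheath scored 35 and Krtap28-10 scored 29. The median score of the 9 was 75, and that of the 3 in replicate 2 was 22. Just inside the 1000 bp limit in replicate 1 were Krt24 at 769 bp and Krt88 at 973 bp, and just outside it were Krtap22-2 at 1088 bp and Krtap6-1 at 1108 bp.

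**Figure D2:**
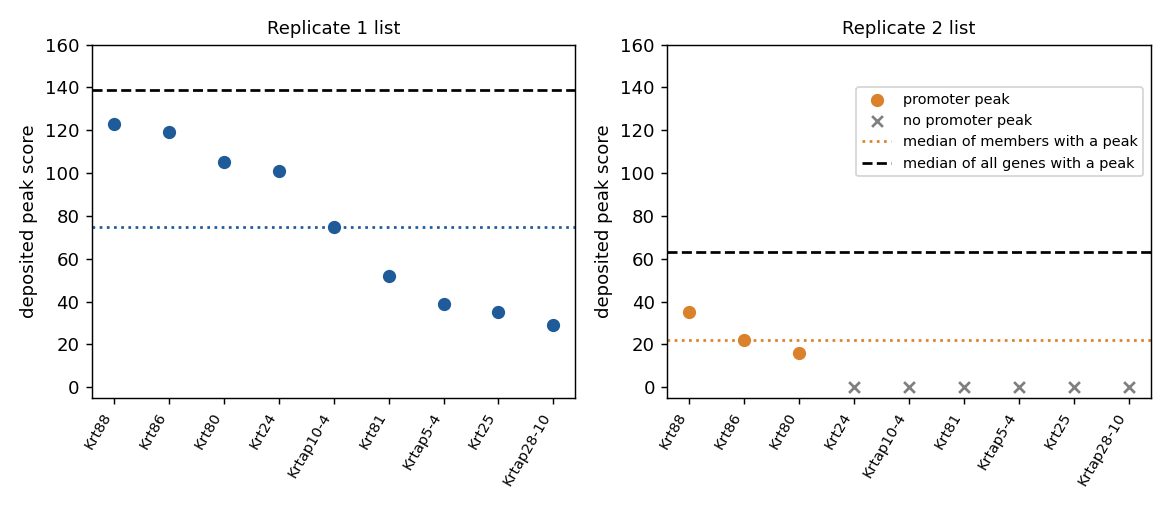
Deposited score of the promoter peak of each of the 9 keratin or keratin-associated genes that had one, in the replicate 1 list (left) and the replicate 2 list (right). Crosses mark no promoter peak. The dotted line is the median of these genes and the dashed line that of all genes with a promoter peak, 139 in replicate 1 and 63 in replicate 2, and every point lies below the dashed line.

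By function, none of the 6 simple epithelial keratins, 12 epidermal and mucosal keratins or 4 stress-induced keratins had a promoter peak in either list, which allows shares up to 39.0%, 24.2% and 49.0% by the upper Wilson limit. In replicate 1 the inner root sheath and companion layer keratins had 1 of 8, the hair and nail keratins 2 of 15 and the keratins placed in no list 3 of 8. In replicate 2 these counts were 0 of 8, 1 of 15 and 2 of 8. For the simple epithelial keratins, the distance from the start to the nearest peak was as follows. Krt8 was 1651 bp from a peak in replicate 1 and 5191 bp in replicate 2, and its partner Krt18 was 6771 and 9829 bp away. Krt7 was 1351 and 24151 bp away, and Krt19 15351 and 42951 bp. These distances are to protein-coding transcript starts. The replicate 1 peak nearest Krt7, at chr15:101410976-101411125 with a score of 87, covers the outer 5' end of the annotated gene, at chr15:101411043. Krt20, an intestinal keratin, was 7199 and 24679 bp away, and Krt23 28166 and 28126 bp. Over all 110 genes the median distances in replicates 1 and 2 were 8606 and 23620 bp, against 223 and 1133 bp over all protein-coding genes. The 24 keratin-associated genes of chromosome 16 lay farthest in the replicate 2 list, with medians of 25404 and 610710 bp in replicates 1 and 2. Within gene bodies, 24 of the 110 genes held at least 1 peak in replicate 1, or 21.8%, against 74.6% of all protein-coding genes. In replicate 2 it was 6, or 5.45%, against 57.9%. The median gene length was 2350 bp for the keratin and keratin-associated genes, against 17380 bp for all, and the part of length in these shares was not tested. Krt80 held 5 and 1 body peaks in replicates 1 and 2, Krt8 held 4 and 1, and Krt7 held 4 and 0.

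Other genes of the same biology were listed for comparison, with the all-gene shares of 58.3% in replicate 1 and 49.4% in replicate 2 as background. Of 16 other intermediate filament genes, 8 had a promoter peak in replicate 1 (Wilson 95% interval 28.0 to 72.0%) and 4 in replicate 2 (10.2 to 49.5%). They included the lamin genes Lmna, scoring 150 and 97, and Lmnb1, scoring 143 and 69, and Vim, which encodes vimentin, scoring 146 and 74. Nes, the gene of nestin, scored 119 and 25. Of 16 desmosome and plakin genes, whose products anchor keratin filaments, 4 had one in both lists. They were Jup (plakoglobin) with 144 and 85, Plec (plectin) with 146 and 78, Pkp2 with 125 and 35, and Evpl (envoplakin) with 101 and 28. Of 16 cornified envelope genes only Tgm1, a transglutaminase, and Casp14 had one, or 12.5% in each list, scoring 145 and 66 and 110 and 28. Of 16 genes for epithelial and hair follicle factors only Klf5 and Grhl1 had one, scoring 145 and 73 and 144 and 56.

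Promoters with few CpGs held peaks less often, and keratin promoters have few CpGs. All promoters were ranked into 5 classes by CpG count within 500 bp of the most upstream start of each gene. Of the keratin and keratin-associated genes, 27 fell in class 1, 67 in class 2, 16 in class 3 and 0 in classes 4 and 5. In replicate 1 the keratin shares were 7.41%, 7.46% and 12.5% in classes 1 to 3, against 19.2%, 41.4% and 69.1% of all genes of those classes. In replicate 2 they were 3.70%, 2.99% and 0%, against 8.99%, 26.5% and 61.4%. At the class shares of all genes, 39.9% of the 110 would hold a peak in replicate 1 and 27.3% in replicate 2, where 8.18% and 2.73% did. The median CpG count was 15.5 for the keratin and keratin-associated genes, 12 for the erythroid markers and 6.5 for the cornified envelope genes. In replicate 1, 11 of 12 erythroid markers and 2 of 16 cornified envelope genes had a promoter peak. Both lists were picked by cell type, so their counts do not bear on the part of CpG content. That part was not tested beyond the 5 classes.

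**Figure D3:**
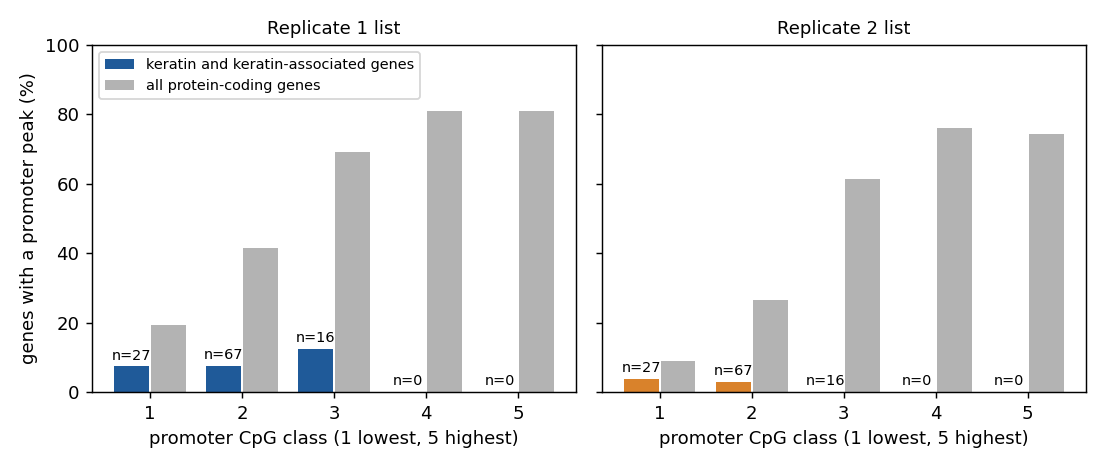
Percentage of genes with a promoter peak in each of 5 CpG classes, for keratin and keratin-associated genes (coloured, n above the bar) and all protein-coding genes (grey), by list. The coloured bar is the lower in each class that holds keratin genes, for example 7.46% against 41.4% in class 2 of replicate 1.

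Keratin genes have close copies, and reads from sequence present more than once in the genome can be lost in mapping. The share of 32-bp words found once in the genome had a median of 93.6% over keratin and keratin-associated promoters, against 98.6% over all. Among the functional lists of keratins this share was lowest in the stress-induced keratins, at 66.3%. It was measured within 1000 bp of the most upstream start of each gene, while a promoter peak could lie at any coding start. Among the 64 promoters that were at least 90% unique, 4 held a peak in replicate 1 and 2 in replicate 2. Their share was 6.25% and 3.12%, against 64.5% and 55.4% of all promoters as unique. Krt80 is counted in both lists, though its peaks lie at an internal start, where uniqueness was not measured. The promoter of Krt86 was 73.4% unique and that of Krt81 67.5%, and how far reads of their copies shaped those peaks was not tested.

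Genes lying within 300 kb of each other were joined into clusters. The cluster of chromosome 15, at chr15:101347444-102032027, held 26 keratins in 0.685 Mb, with 117 peaks in replicate 1 and 31 in replicate 2. That was 171 and 45.3 peaks per Mb, against 126 and 42.8 on the whole chromosome and 106 and 33.6 over the genome. The cluster of chromosome 11, at chr11:99232761-100269871, held 50 genes in 1.04 Mb, with 67 and 20 peaks. That was 64.6 and 19.3 per Mb, against 166 and 52.6 on the whole chromosome. The keratin-associated cluster of chromosome 16 held 24 genes in 0.960 Mb with 11 and 1 peaks, or 11.5 and 1.04 per Mb. The smaller keratin-associated clusters were denser. That of chromosome 7, with 5 genes in 0.130 Mb, had 24 and 7 peaks, or 185 and 53.8 per Mb. That of chromosome 10, with 3 genes in 0.117 Mb, had 18 and 6, or 154 and 51.4 per Mb, of which 15 and 6 lay in the bodies of other genes. The pair on chromosome 1 spanned 0.0204 Mb with 2 and 1 peaks. Among consecutive windows of the same length along the genome, 74.8% in replicate 1 and 68.1% in replicate 2 had fewer peaks than the chromosome 15 cluster, 44.6% and 45.0% fewer than that of chromosome 11, and 17.0% and 11.2% fewer than that of chromosome 16. For the clusters of chromosomes 7 and 10 these shares were 75.9% and 72.1%, and 70.6% and 70.9%. Unique words made up 91.2% of the cluster on chromosome 15, 87.7% of that on chromosome 11 and 83.6% of that on chromosome 16, and 73.8% and 71.6% of those on chromosomes 7 and 10.

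**Figure D4:**
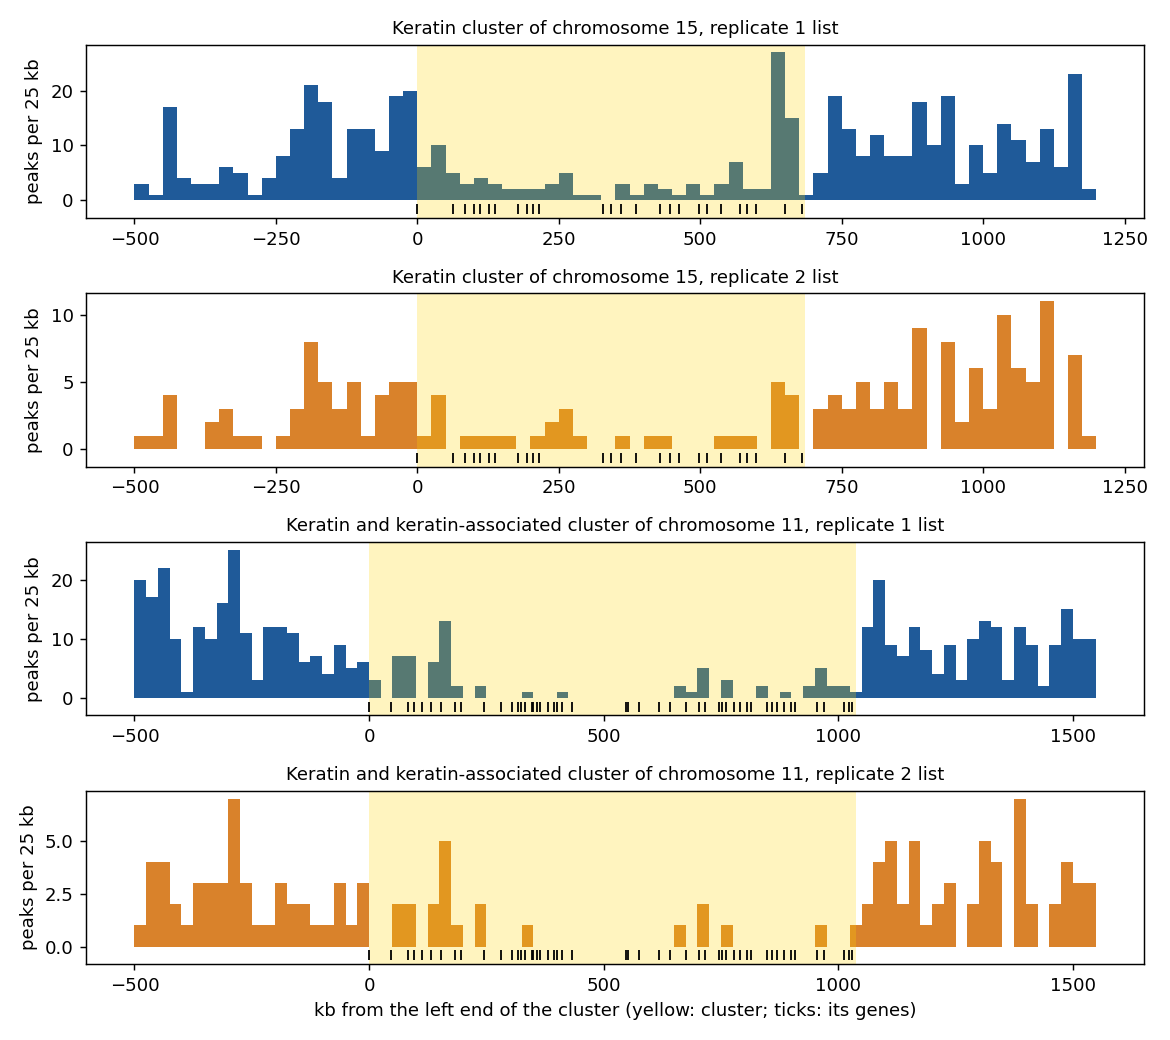
Peaks per 25 kb along the keratin clusters of chromosome 15 (upper panels) and chromosome 11 (lower panels) and 500 kb to either side, by list, with ticks for the genes. On chromosome 15 the peaks gather at the right end of the cluster, where 44 of 117 in replicate 1 lie beyond Krt78, and on chromosome 11 the keratin-associated block in the middle holds 10 of 67.

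Within the chromosome 11 cluster the accessible sites lay mainly at the Krt222 end. The 317 kb spanning the 12 keratins from Krt222 to Krt40 held 40 peaks in replicate 1 and 14 in replicate 2, or 126 and 44.1 per Mb. The 444 kb block of 23 keratin-associated genes held 10 and 4, or 22.5 and 9.01 per Mb, and the 276 kb spanning the 15 keratins from Krt33a to Krt42 held 17 and 2, or 61.6 and 7.25 per Mb. The 49 intervals between neighbouring keratin or keratin-associated genes were 1.85 to 114 kb long, and some of them hold other genes. Of these intervals, 29 had no peak in replicate 1 and 40 had none in replicate 2. No share for intervals elsewhere was computed. The most populated of the 49 lay between Krt10, a keratin of suprabasal epidermis, and Krt12, the corneal keratin. It held 14 peaks in replicate 1 and 6 in replicate 2, with highest scores of 129 and 36. That top peak, 8967 bp upstream of Krt10, was the highest-scoring of the cluster in both lists. The peak with the CTCF core word, 4868 bp upstream of Krt28, scored 111 and 34. The next in the replicate 2 list were a peak 25221 bp upstream of Krt20 at 24 and peaks near Krt25 and Krt10 at 23 each. None of the 20 replicate 2 peaks of the cluster lay within 1000 bp of a transcript start, coding or not, of GENCODE M21 basic. The share of all peaks lying that near a start was not computed.

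Within the chromosome 15 cluster a dense stretch ran from the end of Krt78 to the end of Krt18, a division chosen after the values were seen. These 77.7 kb held 44 peaks in replicate 1 and 9 in replicate 2, or 566 and 116 per Mb. The 607 kb from Krt80 to Krt78, with 24 keratins, held 73 and 22, or 120 and 36.3 per Mb. Median scores were 96 and 53 in the stretch, against 58 and 21.5 in the rest of the cluster. Of windows of 77.7 kb along the genome, 99.1% had fewer peaks in replicate 1 and 91.7% in replicate 2, as a description of a stretch picked for its density. Hotspots covered 23.8% of it in replicate 1 and 3.62% in replicate 2, against 4.16% and 0.965% of the genome.

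The peaks of this stretch lay away from promoters. The interval between Krt78 and Krt8 held 29 in replicate 1 and 5 in replicate 2, that between Krt8 and Krt18 held 11 and 3, and the body of Krt8 (chr15:101996698-102004482) held 4 and 1. None of the 44 and 9 peaks lay within 1000 bp of a transcript start, coding or not, of GENCODE M21 basic. The share of all peaks lying that near a start was not computed. All 9 replicate 2 peaks were overlapped by a replicate 1 peak, against 94.7% of all replicate 2 peaks. Of the 44 replicate 1 peaks, 9 were overlapped by a replicate 2 peak, against 30.2% of all replicate 1 peaks. A peak 20051 bp downstream of the Krt8 start scored 103 in replicate 2, where the overlapping replicate 1 peak scored 147. A peak 9829 bp upstream of Krt18 (chr15:102028180-102032027) scored 103 in replicate 2 and 149 in replicate 1. In each list these were the highest scores of the cluster, above 99.2% of all replicate 2 peaks and above 98.5% and 99.4% of all replicate 1 peaks. The intronic Krt8 peak 5191 bp downstream of the start scored 57 in replicate 2, and the overlapping replicate 1 peak scored 137. Next to the peak between Krt78 and Krt8, another 20351 bp from the Krt8 start scored 59 in replicate 2.

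**Figure D5:**
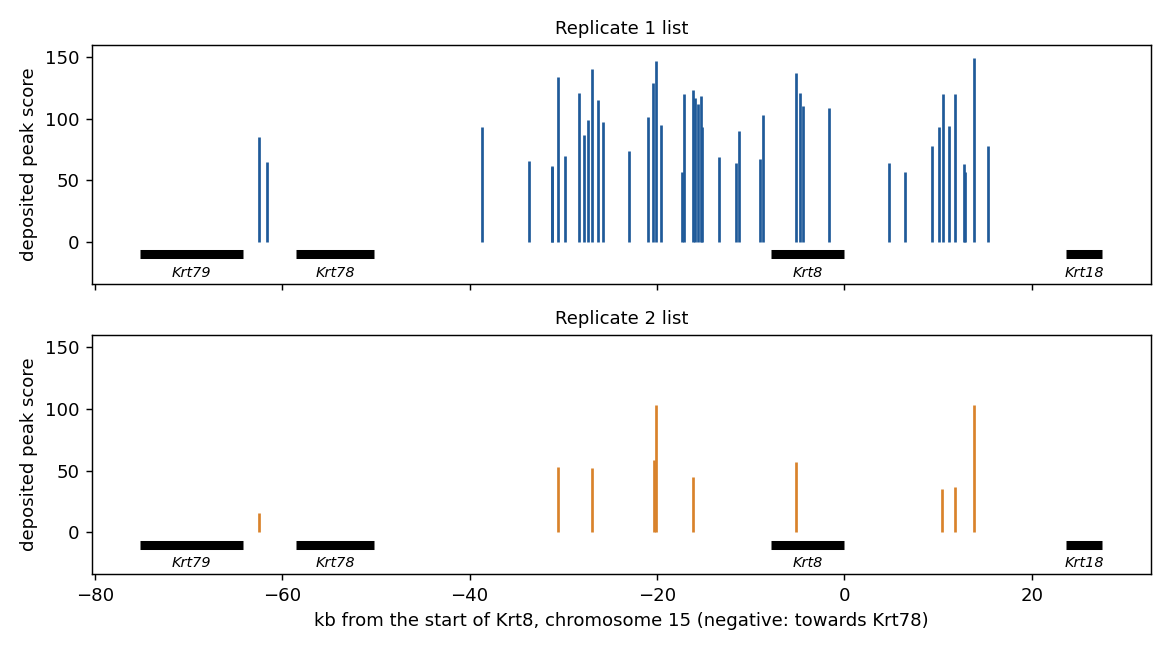
Deposited score of each peak from Krt79 to Krt18 against distance from the Krt8 start in kb, in the replicate 1 list (top) and the replicate 2 list (bottom). Black bars are gene bodies. The tallest bars stand to either side of Krt8, at 147 and 149 in replicate 1 and at 103 each in replicate 2, and none stands at the start of Krt8 or Krt18.

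Elsewhere on chromosome 15, the 40.9 kb between Krt80 and Krt7 held 12 peaks in replicate 1 and 4 in replicate 2, with highest scores of 143 and 60, and the 102 kb between Krt75 and Krt6b held 10 and 6. The whole cluster, the dense stretch included, has 25 intervals between neighbouring keratin genes, some of which hold other genes. Of these intervals, 8 had no peak in replicate 1 and 14 had none in replicate 2. The 25 were 0.394 to 102 kb long, and no share for intervals elsewhere was computed. Peaks outside every annotated gene and over 1000 bp from any protein-coding start made up 69 of 117 in replicate 1 and 19 of 31 in replicate 2. On chromosome 11 such peaks made up 51 of 67 and 19 of 20. Their share over all peaks was not computed. Protein-coding genes inside the clusters whose symbols the rule did not take had a promoter peak in 0 of 18 cases on chromosome 11. On chromosome 15 it was 0 of 3, in each list for both clusters. The shares of all genes were 58.3% in replicate 1 and 49.4% in replicate 2. Genes such as Gm11555, Gm11567, Gm49425 and Gm5414 are among them, and whether they belong to the same families was not examined. Of the 12 genes nearest outside, 3 to each side, 9 had a promoter peak in replicate 1 and 6 in replicate 2, against 58.3% and 49.4% of all genes. The genes named next were chosen after their values were seen. Eif4b, a translation initiation factor gene 41.7 kb right of the chromosome 15 cluster, scored 147 and 89, and Atg101, an autophagy gene 56.5 kb to its left, scored 145 and 64. Smarce1, a chromatin remodeller subunit 1.74 kb left of the chromosome 11 cluster, scored 130 and 27, and Eif1, another initiation factor gene, to its right, scored 145 and 83.

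The sharing of cluster peaks between the lists differed from that of all peaks by less than its interval. Of the 51 replicate 2 peaks in both clusters, 49 overlapped a replicate 1 peak, or 96.1% (Wilson 95% interval 86.8 to 98.9%), against 94.7% of all replicate 2 peaks. Of the 184 replicate 1 peaks, 52 (28.3%, 22.3 to 35.2%) were overlapped, against 30.2% of all. The motif words also occurred at shares whose intervals held those of all peaks. These intervals treat peaks as independent, though some peaks of a list overlap each other. GATAA was present in 17 of 51 replicate 2 peaks, or 33.3% (22.0 to 47.0%), against 27.7% of all, and in 23.4% of replicate 1 peaks against 24.4%. AGATAAG was present in 7.84% and 5.98%, against 6.73% and 5.05% of all peaks in replicate 2 and replicate 1. The AP-1 word was present in 9.80% and 6.52%, against 7.10% and 6.42%, and the CTCF core word in 3.92% and 2.17%, against 3.92% and 2.23%. The RUNX word was present in 11.8% and 16.8%, against 15.5% and 15.5%, and the ETS word in 1.96% and 1.09%, against 3.33% and 1.57%. The KLF word was present in 0 of 51 and 1 of 184, against 2.85% and 2.39%. From Krt78 to Krt18, AGATAAG was present in 5 of 44 replicate 1 peaks, 3 of them between Krt8 and Krt18 and 2 between Krt78 and Krt8. It was present in 3 of 9 replicate 2 peaks, which lay between Krt8 and Krt18. Over all peaks AGATAAG was present in 5.05% in replicate 1 and 6.73% in replicate 2. Of the 44 replicate 1 peaks of the stretch, 9 held GATAA, 4 the AP-1 word and 10 the RUNX word. Of the 9 replicate 2 peaks these counts were 3, 2 and 2. The stretch was picked for its density, and enrichment of a word in it was not tested.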

How the data were processed

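DNase-seq peaks and hotspots of MEL cells were used as the authors deposited them, on mm10 per the labels. Per the deposited notes, the replicate 1 regions came from an alignment merged from its 2 libraries and those of replicate 2 from its 1 library. The aligner and caller are not given in the sources used here, nor are read numbers, and the depth is unknown. The deposited peak score is a whole number from 1 to 150 whose meaning was not given. By their format the last value of the deposited hotspots is a −log10 q-value, and only hotspot positions were used.

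Exact repeats were dropped (67 and 7 lines). Peak centres were assigned to starts of protein-coding transcripts of GENCODE M21 basic. Motif words were counted on either strand in 150 bp around peak centres. Overlap meant at least 1 bp. Tools were numba 0.67.0, matplotlib 3.10.9, scipy 1.17.1, pandas 2.3.3 and numpy 2.4.6, under Python 3.11.15, and the code was tested on simulated data.

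Genes named were those with a replicate 2 promoter peak, up to 12 with the highest replicate 1 promoter scores (9 had one), the simple epithelial keratins, the 5 highest replicate 2 peaks of each cluster, and up to 4 genes of each comparison list with the highest replicate 2 scores. Others were chosen after their values were seen. The genes and lists were chosen with earlier results of these data known. Krt74 and Krt85 of the lists were not found as protein-coding genes. Other promoter widths, list lengths, hotspots, cluster limits, overlap rules and motif windows were tried.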

Additional observations from a re-analysis of the deposited data

How the results depend on the processing

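Of 55 alternatives, all planned, 38 left the value within its interval or within 1.5 times and 17 moved it. The replicate 1 share of keratin genes with a promoter peak became 18.2% within 2500 bp, against 66.2% of all genes, and 3.64% with the list shortened to the length of the replicate 2 list, against 50.7%. The replicate 2 share became 0.909% with the higher-scoring 50% of peaks, against 44.4%. In every setting with an all-gene share, the keratin share was the lower. With the higher-scoring 50%, the chromosome 15 cluster held 81.8 and 19.0 peaks per Mb in replicates 1 and 2, the chromosome 11 cluster 17.4 and 1.93, and the genome 53.1 and 16.8. With the shortened replicate 1 list the clusters held 46.7 and 8.68 per Mb, and the genome 33.6. The 75 bp window, a smaller one by construction, left the CTCF core word at 2.17% and 3.92% and the replicate 2 KLF word at 0. In replicate 1, GATAA fell to 13.0%, AGATAAG to 2.17%, RUNX to 9.24% and KLF to 0%. In replicate 2, GATAA fell to 17.6%, AGATAAG to 1.96%, AP-1 to 3.92% and ETS to 0%. The shares of all peaks in the 75 bp window were not computed, and those given above are for 150 bp. Leaving out a library could not be done, because each biological replicate has 1 list. No paired analysis was possible because no groups were compared. The depth is unknown, so the absence of a peak means only that none was called.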
